A study of Drosophila melanogaster with 3 samples.

Results

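The genes followed here belong to neuronal differentiation and the synapse, in a ChIP-seq experiment (chromatin immunoprecipitation and sequencing) on PHDP, a paired-like homeodomain protein, in Drosophila melanogaster. In all, 10 were chosen by name from 13945 protein-coding genes: the RNA-binding protein genes elav, fne and Rbp9, the transcription factor gene scrt, the synaptic genes Syx1A, nSyb, Syt1 and brp, and the channel genes cac and para. The samples were whole embryos aged 10 to 24 hours of a transgenic line with GFP fused to the C terminus of PHDP, precipitated with an antibody against GFP, in 3 biological replicates of a single group. No embryos without the tag were analysed here, so a peak is a place that the authors called in the anti-GFP precipitate with a shared control, and signal that the antibody gives without PHDP cannot be told apart from it. Whole embryos mix neurons with all other cells, and the files do not say in which cells a peak arose.

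ELAV-family proteins bind RNA and control splicing, polyadenylation and stability of transcripts in neurons; elav is the widely used marker of post-mitotic neurons, and fne and Rbp9 are its paralogs. scrt encodes a zinc finger repressor of the Snail family that promotes neuronal fate. At the synapse, vesicle fusion is carried out by the SNARE proteins Syntaxin 1A (Syx1A, in the plasma membrane) and neuronal Synaptobrevin (nSyb, in the vesicle), with Synaptotagmin 1 (Syt1) as the calcium sensor, Bruchpilot (brp) as a scaffold of the active zone, cacophony (cac) as the pore-forming subunit of the presynaptic calcium channel, and paralytic (para) as the voltage-gated sodium channel of the action potential.

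The peak lists of the replicates and of the pool held 30000 peaks each. The stricter IDR list (irreproducible discovery rate, a measure of how alike peaks rank between replicates) held 7092. The IDR peaks were the 7092 strongest of the pooled list, so membership matched a cut by pooled signal and not a check of each peak in each replicate. A summit, the highest point of a peak, was assigned to a gene when it lay within 1 kb of one of its annotated start sites, or in its body plus 2 kb on either side. Signal is the authors' value per peak, on a different scale in the pooled and the replicate lists. Sequencing depth is unknown from these files.

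Of the 10 genes, 4 had an IDR summit within 1 kb of a start site (elav, fne, scrt and Syx1A), beside 28.9% of all protein-coding genes. With Rbp9 and nSyb, 6 had one in the body plus 2 kb, beside 42.4% of all. Among the 4 regulators elav, fne, Rbp9 and scrt, 3 had a summit near a start and all 4 had one in the wider window, with 8 IDR summits in all. Of the 6 synapse and channel genes, only Syx1A had one near a start and only Syx1A and nSyb had any in the wider window, with 6 summits in all, of which 5 were at Syx1A. brp, Syt1, cac and para had none. Longer genes have a summit more often. Within 1 kb of a start the share was 24.4% for genes under 5 kb and 41.0% for those of 5 to 20 kb. It was 46.6% for those of 20 to 50 kb and 45.3% for longer ones. Of the 10 genes only Syx1A is under 5 kb. Shares by length for the wider window follow below. The counts for the 10 genes are of a few named genes and were not tested.

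**Figure D1:**
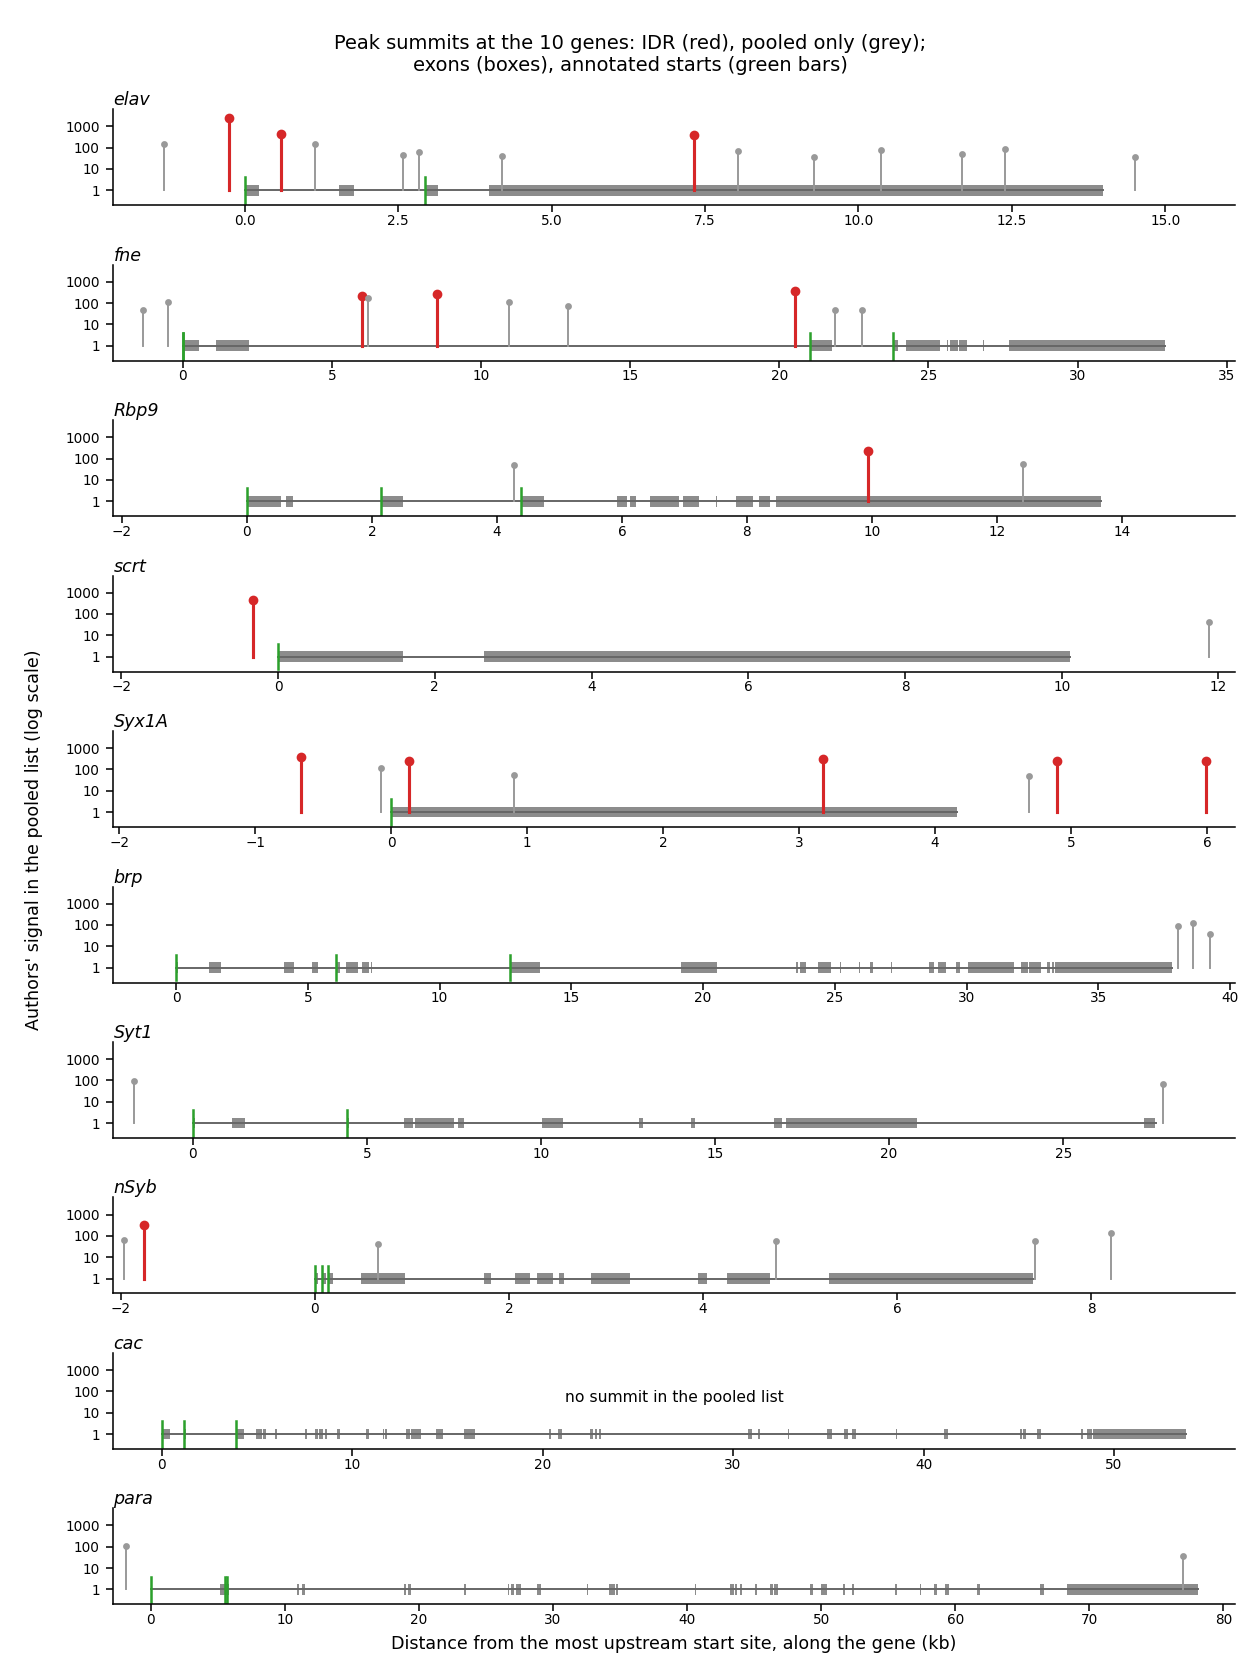
Peak summits along the 10 genes, each drawn 5′ to 3′ in kb from its most upstream start site (x axis) with the authors' signal in the pooled list on a log scale (y axis); red marks are IDR summits, grey marks pooled summits outside the IDR list, boxes exons of all transcripts and green bars annotated starts. The 14 red marks lie at elav, fne, Rbp9, scrt, Syx1A and nSyb, and cac carries no mark at all.

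Sequences of 6 of the 14 IDR summits are printed here because they carry the results below: the strongest summit of each gene that had one near a start, the first-intron summit of elav, which was the most GC-rich of the 14, and the one summit with the homeodomain word TAATTA. Each is the 201 bases centred on the summit on the strand of the gene, read from the RefSeq genome of release 6 (dm6). Capitals mark the homeodomain core TAAT on either strand (read as ATTA on the other), except in the first intron of elav, which holds no TAAT and where they mark the GAGA factor word GAGAG.
elav, upstream of the shared start (chrX:523378-523578, minus strand): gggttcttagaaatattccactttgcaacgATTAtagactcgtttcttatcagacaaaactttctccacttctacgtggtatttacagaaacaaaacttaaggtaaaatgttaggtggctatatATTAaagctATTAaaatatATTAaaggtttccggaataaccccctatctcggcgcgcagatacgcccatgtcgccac
elav, first intron (chrX:522537-522737, minus strand): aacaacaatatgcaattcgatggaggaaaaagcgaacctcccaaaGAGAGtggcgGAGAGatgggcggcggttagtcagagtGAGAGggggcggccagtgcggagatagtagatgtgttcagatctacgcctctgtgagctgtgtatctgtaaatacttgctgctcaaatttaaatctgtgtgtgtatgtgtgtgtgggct
fne, intron (chrX:12925882-12926082, plus strand): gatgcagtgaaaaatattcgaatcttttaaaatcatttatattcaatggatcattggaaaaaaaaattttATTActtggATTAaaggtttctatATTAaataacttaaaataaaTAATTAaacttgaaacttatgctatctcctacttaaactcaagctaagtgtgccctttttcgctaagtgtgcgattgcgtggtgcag
fne, before the internal start (chrX:12937897-12938097, plus strand): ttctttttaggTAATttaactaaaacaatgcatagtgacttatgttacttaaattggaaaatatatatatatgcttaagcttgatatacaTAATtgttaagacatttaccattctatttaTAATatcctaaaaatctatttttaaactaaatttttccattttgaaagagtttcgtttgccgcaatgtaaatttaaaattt
scrt, upstream of the start (chr3L:3983479-3983679, plus strand): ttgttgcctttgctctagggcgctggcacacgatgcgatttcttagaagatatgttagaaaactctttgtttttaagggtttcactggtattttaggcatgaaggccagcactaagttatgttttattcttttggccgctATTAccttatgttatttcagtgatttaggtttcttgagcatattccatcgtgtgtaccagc
Syx1A, upstream of the start (chr3R:24106327-24106527, minus strand): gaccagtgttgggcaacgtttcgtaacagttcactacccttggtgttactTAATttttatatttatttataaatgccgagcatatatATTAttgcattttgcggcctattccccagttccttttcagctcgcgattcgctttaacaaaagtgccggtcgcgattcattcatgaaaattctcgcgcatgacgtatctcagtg

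The strongest summit at any of the 10 genes stood at the start of elav (FBgn0260400, X:509235-523226, minus strand, dm6). The peak X:523284-523690 had its summit 252 bp upstream of the start that elav shares with the non-coding RNA lncRNA:enrr, inside an intron of arg, an arginase gene on the opposite strand whose 18594 bp span most of elav. Its pooled signal was 2553, rank 74 of 7092, within the top 1.04% of the IDR list. Its signal was 842 in replicate 1, 997 in replicate 2 and 711 in replicate 3, or 850 ± 143 (SD, n = 3). All 3 replicates placed the summit within 13 bp of the IDR summit. A summit at least as strong lay within 1 kb of a start of 0.545% of all protein-coding genes, a limit set at the elav value after it was seen.

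elav had a second IDR summit 589 bp downstream of the same start, in its first intron, in the peak X:522494-522770. Here the replicates disagreed in size: the signal was 88.8, 248 and 82.8 in replicates 1, 2 and 3, or 140 ± 93.8 (SD, n = 3), so replicate 2 stood well above the other two. Another summit, in X:515808-516018, lay 4382 bp downstream of the nearer start in the long 3′ UTR of elav, with 127, 143 and 135, or 135 ± 8.0 (SD, n = 3), where the replicates lay close together. Both were far below the summit upstream of the start in every replicate. The pooled list placed 14 summits at elav in all, and the replicate lists 13, 11 and 15. The second annotated start of elav, used by 1 of its 4 transcripts, had no IDR summit within 1 kb and a weak pooled one at -107 bp with a signal of 58.8.

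fne (FBgn0086675, X:12917477-12950417, plus strand), a paralog that acts with elav in neurons, had 3 IDR summits, all in introns. Its 2 upstream starts lie 7 bp apart and had no IDR summit within 1 kb; a pooled summit at -506 bp had a signal of 111. The strongest IDR summit, in X:12937864-12938123, lay 520 bp before an internal start that 5 of its 11 transcripts use. Its signals were 125, 166 and 79.4 in replicates 1, 2 and 3, or 123 ± 43.5 (SD, n = 3), a roughly even spread around the mean. The summit in X:12925833-12926051, 8498 bp into the gene, had 80.6, 107 and 69.4, or 85.7 ± 19.3 (SD, n = 3). The last, in X:12923372-12923510, was the weakest of the 14 (rank 5565): it had 58.3 and 94.0 in replicates 1 and 2, and the nearest summit of replicate 3 was 170 bp away, beyond the 100 bp taken as a match.

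Rbp9 (FBgn0010263, 2L:2954762-2968434, plus strand), the paralog known from neurons and the female germline, had 1 IDR summit and none near its 3 starts. It lay in 2L:2964506-2964901 in the 3′ UTR of Rbp9, 5557 bp past the last start, and the start of Ts, a thymidylate synthase gene, was closer, at 4934 bp. Its signals were 81.6, 72.8 and 51.8, or 68.7 ± 15.3 (SD, n = 3), at rank 5388. Near a start, the pooled list had 1 weak summit, at -112 bp with a signal of 50.5, which no replicate list matched within 100 bp.

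The 3 paralogs were compared at their strongest IDR summit in each replicate. The elav signal exceeded that of fne in all 3 replicates, by 2.76, 2.58 and 3.16 on the log2 scale, or 2.83 ± 0.30 (SD, n = 3), a 7.13-fold geometric mean with a range of 5.99 to 8.95. It exceeded that of Rbp9 by 3.37, 3.78 and 3.78, or 3.64 ± 0.24 (SD, n = 3), 12.5-fold with a range of 10.3 to 13.7. fne exceeded Rbp9 by 0.61, 1.19 and 0.62, or 0.81 ± 0.33 (SD, n = 3), 1.75-fold. Each of the 3 differences had the same direction in all replicates, but a two-sided exact sign-flip permutation test over 3 replicates cannot go below 0.25, and each p was 0.25 (Benjamini-Hochberg adjusted over the 3 pairs, 0.25). Each summit was picked by its signal in the pool of these same replicates, so the shared direction is not independent support. The peaks compared differ in place: upstream of the first start in elav, before an internal start in fne and in the 3′ UTR in Rbp9.

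scrt (FBgn0004880, 3L:3983896-3994003, plus strand) had 1 IDR summit, 317 bp upstream of its single start in 3L:3983447-3983712, with no other gene annotated there. Its pooled signal of 472 was the second highest of the 14 (rank 1897). The signal was 99.6 in replicate 1, 295 in replicate 2 and 82.8 in replicate 3, or 159 ± 118 (SD, n = 3). As in the first intron of elav, replicates 1 and 3 lay close together and replicate 2 stood apart.

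To set replicates on one scale, each signal was divided by the median over matched IDR peaks of its replicate, which was 110, 118 and 91.3 in replicates 1, 2 and 3. On that scale the elav summit upstream of the start was at 7.65, 8.43 and 7.79, with no replicate apart. The elav intron summit was at 0.806, 2.10 and 0.907, and the scrt summit at 0.905, 2.49 and 0.907. Replicate 2 was thus at least 2 times both others at 2 of the 12 summits matched in all replicates, beside 0.374% of all 6421 such IDR summits. This description was chosen after the values were seen and has no test. At 1.5 times the count was also 2, beside 3.15% of all, and at 3 times it was 0, beside 0.0311%.

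**Figure D2:**
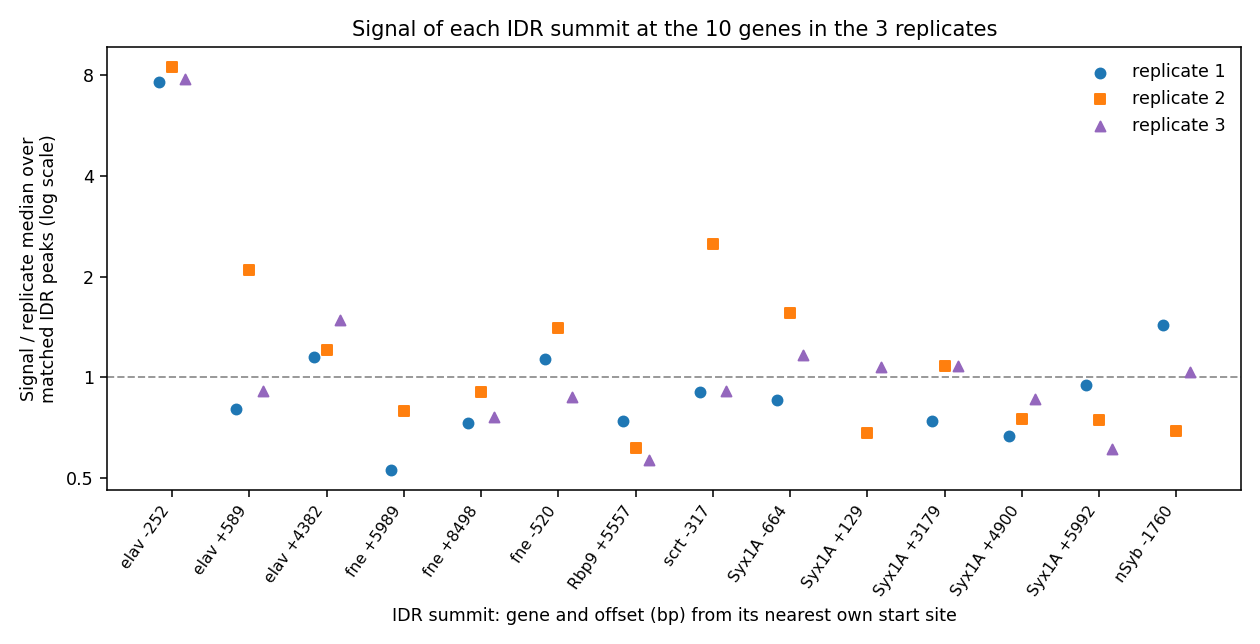
Signal of each of the 14 IDR summits in the 3 replicate lists, divided by the replicate's median over matched IDR peaks (y axis, log scale, dashed line at 1); the x axis names the gene and the offset in bp from its nearest own start. The first elav summit lies at 7.65 to 8.43 in all replicates, replicate 2 stands apart at elav +589 and scrt -317, and a missing point is a replicate with no summit within 100 bp.

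Syx1A (FBgn0013343, 3R:24101600-24105763, minus strand) had the most IDR summits of the 10 genes. There were 5 in its 4164 bp body plus 2 kb on either side, a window of 8164 bp, and some lay only in the flanks. That is 6.12 per 10 kb of body plus flanks beside 0.53 per 10 kb of the arms. Only 3 protein-coding genes under 5 kb had 5 or more in the body plus 2 kb (0.0287%, a limit set at the Syx1A value after it was seen). The others were Hex-A and RpL8. Syx1A lies inside an intron of eIF4EHP, a translation regulator gene of 45884 bp with 11 IDR summits in its own body plus 2 kb. All 5 Syx1A summits fall in an intron of eIF4EHP. Syx1A has the nearest protein-coding start for each of the 5.

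The strongest of them, in 3R:24106356-24106551, lay 664 bp upstream of the Syx1A start with signals of 94.4, 184 and 106, or 128 ± 48.6 (SD, n = 3). The next, in 3R:24105436-24105831, lay 129 bp downstream in the 5′ UTR with 80.7 and 98.3 in replicates 2 and 3, and replicate 1 had its nearest summit 105 bp away. One in 3R:24102386-24102781 lay in the 3′ UTR (81.3, 127 and 98.8, or 103 ± 23.3, SD, n = 3). The remaining pair lay beyond the 3′ end, in 3R:24100815-24100938 (73.6, 88.6 and 78.4, or 80.2 ± 7.65, SD, n = 3) and 3R:24099573-24099968 (104, 88.1 and 55.7, or 82.7 ± 24.7, SD, n = 3). No one of the 5 dominated as the upstream summit of elav did, and their replicate ranges overlapped, except that the upstream summit (94.4 or more) stayed above the first one past the 3′ end (88.6 or less). A pooled summit at -71 bp, outside the IDR list, was matched in all replicates with 66.9, 51.9 and 51.8.

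nSyb (FBgn0013342, 3L:1630348-1637752, minus strand), the vesicle partner of Syx1A, had 1 IDR summit, 1760 bp upstream in 3L:1639314-1639709. It lay only 199 bp upstream of the start of Bgb, the gene of a Runx cofactor, so that its count for nSyb rests on the 2 kb flank. Its signals were 157, 81.9 and 94.9, or 111 ± 40.3 (SD, n = 3), here with replicate 1 highest. Within 1 kb of an nSyb start the pooled list had 1 summit, at 514 bp with a signal of 43.2, and replicate 3 alone matched it.

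Syt1 (FBgn0004242, 2L:2772327-2799979, minus strand) had no IDR summit; the nearest lay 2326 bp beyond its body, 25543 bp past the nearer start. Each replicate list had a summit within 1 kb of a start, but at different places: the nearest was at -230 bp in replicate 1 with a signal of 22.6, at -63 bp in replicate 2 with 25.7, and at -790 bp in replicate 3 with 17.4. Their −log10 q values were 0.575, 1.25 and 0.619, low in lists that reach down to 0.358, 0.429 and 0.388. The pooled list had 2 summits at Syt1, at -1680 bp with a signal of 89.5 and beyond the 3′ end, 344 bp upstream of the start of CG15399.

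brp (FBgn0259246, 2R:9503765-9541565, plus strand) had no summit within 1 kb of its 3 starts in any of the 5 lists, and none of its pooled summits lay in its 37801 bp body. The 3 pooled summits counted for it lay past its 3′ end, the strongest in the 3′ UTR of CG1888 with replicate signals of 57.0, 41.9 and 55.8. The nearest IDR summit was 2680 bp beyond the body. Among protein-coding genes of 20 kb or more, the length of brp, Syt1, cac and para, 30.1% had no IDR summit in the body plus 2 kb.

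cac (FBgn0263111, X:11931280-11985087, minus strand) had no summit in the IDR, pooled or any replicate list over 57808 bp, counting 2 kb on either side. The nearest IDR summit was 10135 bp from the body and the nearest pooled summit 6457 bp. Of protein-coding genes of 50 kb or more, 15.6% had no pooled summit in that window and 10.4% none in any of the 5 lists, a share first looked up after the cac values were seen. Genes of that length had a median of 3 IDR and 14 pooled summits.

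para (FBgn0285944, X:16455027-16533096, minus strand) had 2 pooled summits over 82070 bp and no IDR summit. At most 2 pooled summits were found at 24.1% of genes of 50 kb or more, a limit set at the para value after it was seen. The first, 1855 bp upstream of the most upstream start, had a pooled signal of 115 and signals of 32.0, 32.1 and 33.0, or 32.4 ± 0.527 (SD, n = 3), low but nearly equal in the replicates. Replicate 1 had a second summit nearby, at -1745 bp, with a signal of 53.1. That start serves 1 of 60 annotated transcripts; the start that 58 of them use lay farther off, with the summit at -7537 bp. The second, with a signal of 37.8 in the 3′ UTR, was matched in no replicate. The nearest IDR summit, with a signal of 731, lay 19580 bp upstream of para.

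**Figure D3:**
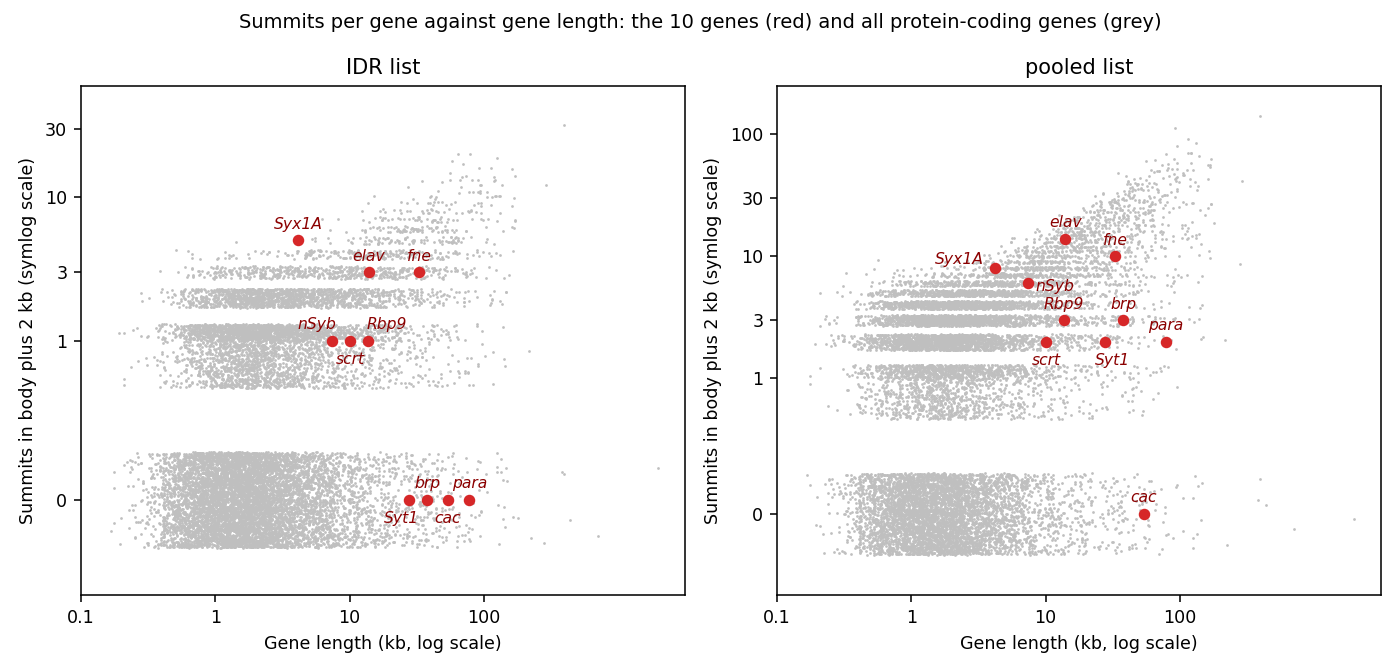
Summits in the body plus 2 kb (y axis, symmetric log scale, grey points spread slightly around whole numbers) against gene length in kb (x axis, log scale) for the IDR list (left) and the pooled list (right), with the 10 genes in red and all 13945 protein-coding genes in grey. Syx1A has 5 IDR summits at 4164 bp, while brp, Syt1, cac and para have 0 although each is longer than 20 kb.

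Gene length bears on these counts, since longer genes offer more sequence. An IDR summit in the body plus 2 kb was found at 36.3% of genes under 5 kb, 56.6% of those of 5 to 20 kb, 68.4% of those of 20 to 50 kb and 73.3% of longer ones. Over the 10 genes the order ran otherwise: the 6 with a summit were 4164 to 32941 bp long and the 4 without were 27653 to 78070 bp long, so only fne overlapped the second range. In the pooled list 9 of the 10 had a summit in the body plus 2 kb, all but cac, beside 61.8% of all genes. That pooled share was 56.3% for genes under 5 kb and 75.6% for those of 5 to 20 kb. It was 85.1% for those of 20 to 50 kb and 84.4% for longer ones. Within 1 kb of a start 6 of the 10 had a pooled summit, beside 50.6% of all genes. Each of the 3 replicate lists had a summit within 1 kb of a start of 7 (elav, fne, Rbp9, scrt, Syx1A, Syt1 and nSyb), beside 45.5%. At Rbp9 and nSyb, as at Syt1, the summit nearest to a start moved between replicates. For Rbp9 it was at -10, 754 and 863 bp in replicates 1, 2 and 3, with signals of 27.0, 15.8 and 51.0. For nSyb it was at 403, -28 and 513 bp, with 24.0, 19.2 and 21.0.

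Of the 14 IDR summits, 12 were matched within 100 bp in all 3 replicates, beside 90.5% of all IDR summits, and the other 2 were matched in 2. Such matches are favoured by construction, as the IDR peaks are the strongest in the pool of these same replicates. Of the 36 pooled summits outside the IDR list, 10 were matched in all replicates, beside 22.5% of all such summits. In strength the 14 lay around the middle of the IDR list: 7 were at or above the median IDR signal of 301, and their own median was 317.

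The sequences under the 14 summits were searched on both strands for 10 words within 100 bp. TAAT, the core of homeodomain sites, was present at 11 of the 14 and at 92.0% of all IDR summits, so that it sets none of them apart. Within 200 bp it was present at all 14 and at 98.3% of all. TAATTA was present at 1, the fne intron summit printed above, and at 18.8% of all; it contains TAAT. The paired homeodomain palindromes P2 and P3, TAAT and ATTA separated by 2 or 3 bases, were present at none, and at 2.65% and 3.07% of all. The housekeeping promoter words TATCGATA (DRE) and GGTCACAC (Motif 1) were also present at none, against 3.12% and 2.19% of all. GAGAG was present at 2 of the 14 and at 21.3% of all, but at 8 of the 14 and 43.0% of all within 200 bp. The GATA factor word AGATAA was present at 2 and at 16.7%, the forkhead factor word TGTTTAC at 2 and at 7.61%, and the E-box CAGCTG at 1 and at 8.02%.

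The elav summits differed from each other in these words. The one upstream of the start held TAAT in 4 places and the one in the 3′ UTR in 3. The intron summit held none within 100 bp, as did the Rbp9 summit and the Syx1A summit in the 5′ UTR. The elav intron summit had GAGAG in 3 places, in the most GC-rich window of the 14 (48.8%). The least GC-rich was the fne summit before the internal start, at 21.4%; the median of the 14 was 35.1% and that of all IDR summits 33.8%. The scrt window held 1 TAAT and no other word. A word is a match of letters in a window and not a measured site.

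Other neuronal genes were taken from 5 lists of related function. Of 101 genes found, 26 (25.7%) had an IDR summit within 1 kb of a start and 45 (44.6%) in the body plus 2 kb, beside 28.9% and 42.4% of all genes. The 101 genes had a median length of 21120 bp, and genes of 20 to 50 kb had shares of 46.6% and 68.4%. In the stricter peak sets the lists fell further below all genes near a start, with 8.91% beside 17.2% at signals of the IDR median or more. With summits given to the gene of the nearest start at any distance they stood above, with 34.7% beside 26.9%. None of 17 other neuronal regulators had one near a start, and 3 (17.6%) had one in the body plus 2 kb. These were nerfin-1, exex and tup, transcription factor genes of the nervous system, named after the count was seen. The 17 genes had a median length of 3208 bp, and genes under 5 kb had shares of 24.4% and 36.3%. The count near a start was 1 (5.88%, beside 35.2% of all genes) within 2000 bp. It was 1 with peak intervals in place of summits and 2 (11.8%, beside 26.9%) with the nearest start at any distance. It stayed 0 within 500 bp, with canonical starts, in the stricter peak sets and without each replicate in turn. Each of the 3 replicate lists had a summit within 1 kb of a start of 5 of the 17, beside 45.5% of all genes. The proneural genes ac, sc, l(1)sc, ase, ato, amos, cato and tap, and pros and dimm, had no pooled summit in the body plus 2 kb. No pooled summit in the body plus 2 kb was found for 38.2% of all protein-coding genes and 43.7% of those under 5 kb, as 8 of these 10 are, and for 10 of the 17 regulators.

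The 27 other genes of the SNARE machinery and the vesicle cycle had a median length of 10368 bp. Of them, 11 (40.7%) had an IDR summit near a start, beside 41.0% of genes of 5 to 20 kb and 28.9% of all genes. That share above all genes was not kept when a replicate was left out: 6, 5 and 4 of the 27 were left without replicates 1, 2 and 3 (22.2%, 18.5% and 14.8%, beside 22.7%, 21.6% and 22.0% of all genes), and 2 at signals of the IDR median or more (7.41%, beside 17.2%). The strongest was at AP-2alpha, an endocytic adaptor subunit, at -165 bp with 256 ± 30.9 (SD, n = 3), but the start of ebi was nearer. comt, the NSF ATPase that takes SNARE complexes apart, followed at -165 bp with 154 ± 21.6 (SD, n = 3), and EndoA, an endophilin of vesicle uptake, at -276 bp with 100 ± 13 (SD, n = 3). Snap25, a further SNARE of the neuronal complex, had no pooled summit in its 225026 bp body plus 2 kb, nor did unc-13, a priming factor. In all, 5 of the 27 had none there, beside 38.2% of all genes. Of genes of 5 to 20 kb, 75.6% had at least 1. stnA and stnB share a start, so 1 summit counts for both.

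Of 13 active zone and adhesion genes, 7 (53.8%) had an IDR summit near a start, beside 28.9% of all genes. Their median length was 43831 bp, and 46.6% of genes of 20 to 50 kb had one near a start. The count was 5 (38.5%, beside 26.5% of all genes) with canonical starts and 4 (30.8%, beside 17.2%) at signals of the IDR median or more. With the nearest start at any distance it was 8 (61.5%, beside 26.9%). Nrx-1, the presynaptic neurexin, led at -148 bp with 285 ± 91.6 (SD, n = 3), then the scaffold gene Spn at -757 bp with 139 ± 20.1 (SD, n = 3) and the receptor phosphatase gene Lar at -85 bp with 131 ± 20.9 (SD, n = 3). Nlg2, a neuroligin, had one, while Nlg1 and Nlg3 had no pooled summit in the body plus 2 kb.

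The 24 voltage-gated channel genes and their partners had a median length of 30101.5 bp. Of them, 4 (16.7%) had an IDR summit near a start, beside 28.9% of all genes and 46.6% of those of 20 to 50 kb. In the body plus 2 kb 13 (54.2%) had one, beside 42.4% of all genes and 68.4% of those of 20 to 50 kb. The first count depended on how summits were linked. It was 8 (33.3%, beside 35.2% of all genes) within 2000 bp and 11 (45.8%, beside 26.9%) with the nearest start at any distance. It was lower, 3 (12.5%, beside 25.1%), within 500 bp and 2 (8.33%, beside 26.5%) with canonical starts. Without replicate 2 it was 2 (8.33%, beside 21.6%), and 3 (12.5%) without replicate 1 or 3 (beside 22.7% and 22.0%). The 4 were the calcium channel gene Ca-alpha1T at -920 bp with 259 ± 44.5 (SD, n = 3), the potassium channel gene sei at -113 bp with 187 ± 40.3 (SD, n = 3), the potassium channel subunit gene Hk at -211 bp with 89.1 ± 61.0 (SD, n = 3), and Ca-beta. Pooled summits in the body plus 2 kb were found at 85.1% of genes of 20 to 50 kb, where the list's median length lies. In all, 8 of the 24 had none there, a share of 33.3% beside 38.2% of all genes. Among them were the calcium channel genes Ca-alpha1D, stj and stol, the gene tipE of an auxiliary subunit of para, and the related Teh2, Teh3 and Teh4. Ca-beta, the calcium channel beta subunit gene, had 5 IDR and 21 pooled summits, and Teh1 had 1 IDR summit in the body plus 2 kb.

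Of 20 genes of transmitter enzymes, transporters and receptors, 9 (45%) had an IDR summit in the body plus 2 kb, beside 42.4% of all genes. Near a start 4 (20%) had one, beside 28.9% of all genes. They were led by the nicotinic receptor gene nAChRalpha7 at -591 bp with 136 ± 39.9 (SD, n = 3), followed by Tbh, the enzyme gene of octopamine synthesis, at -391 bp with 76.8 ± 6.89 (SD, n = 3), and Ace, acetylcholinesterase, at -355 bp with 70.9 ± 23.2 (SD, n = 3). The count near a start was 2 (10%, beside 25.1% of all genes) within 500 bp. This list had a median gene length of 24108.5 bp. For genes of 20 to 50 kb the shares were 46.6% near a start and 68.4% in the body plus 2 kb. The lists differ in gene length, and no difference between them was tested.

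**Figure D4:**
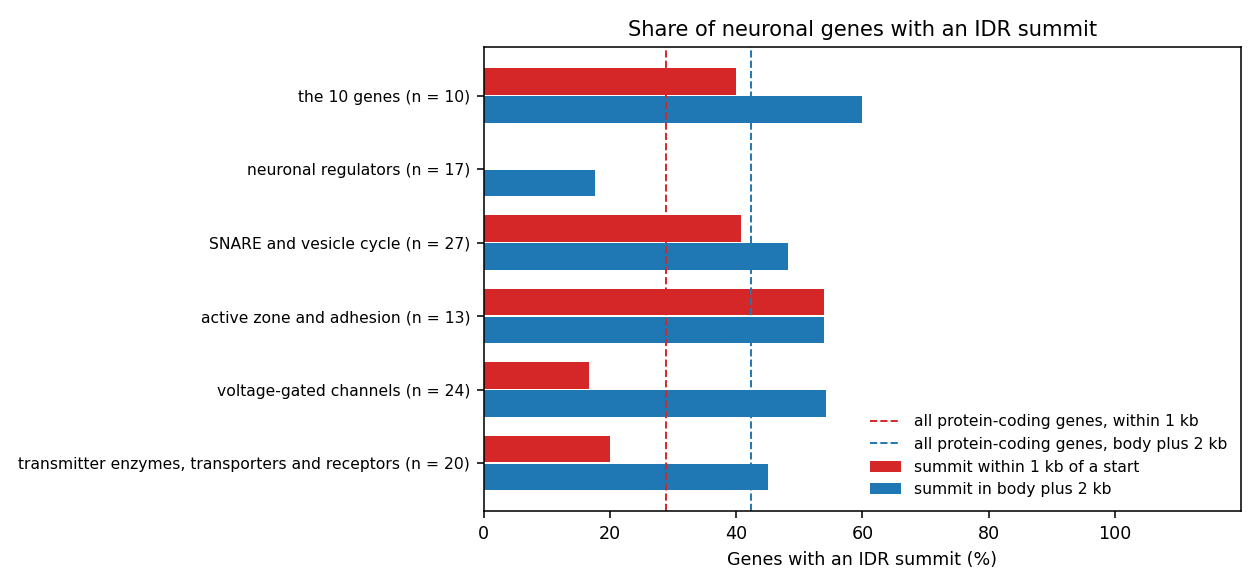
Percentage of genes with an IDR summit (x axis) within 1 kb of a start (red bars) and in the body plus 2 kb (blue bars) for the 10 genes and 5 lists of other neuronal genes, with the shares over all protein-coding genes as dashed lines (28.9% and 42.4%). The red bar is 0 for the neuronal regulators and reaches 53.8% for active zone and adhesion genes. The dashed lines take no account of gene length.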

How the data were processed

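Per the labels, chromatin was sonicated, with sizes of 200 to 800 in a unit that is not stated. Per the notes deposited with the files, every peak list was made on dm6 by the authors: a replicate's from its own alignment, the pool's from all 3 alignments, each beside 1 shared control, and the IDR list from those 4 lists. The aligner and caller are not named in the sources used here. Each peak has a signal value deposited by the authors, whose normalization is not stated, a −log10 q value deposited by the authors, which reaches a ceiling of 4.24 in the IDR peaks at these genes and was not used for ranking, and a summit offset in bp. Depth cannot be derived from these lists, so no interval is given.

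Genes and start sites came from the Ensembl annotation of release 115 (BDGP6.54) and sequence from the RefSeq genome of release 6, both of the dm6 assembly. Coordinates are 1-based. The 6 main arms were used; 5 mitochondrial peaks of replicate 3 were left out. Replicate peaks were matched to a summit within 100 bp. Offsets are negative upstream of a start. The signal was compared between paralogs on the log2 scale at the matched strongest IDR summit. The linking of summits to genes, the matching and the words were tested on simulated data. Alternatives were other start limits, flanks, match distances, peak sets, word windows, signal scales, and leaving out each replicate, which kept the IDR summits that both remaining replicates matched among their 7092 strongest peaks.

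The members and lists were chosen with earlier results of these data known. Named genes were all 10 members, the gene with the nearest start to each of their IDR summits, and the 3 genes of each list with the strongest IDR summit within 1 kb. Other genes named were chosen after their values were seen. Of 103 list genes, Syd-1 and Trh found no match by symbol. Python 3.11.15, numpy 2.4.6, pandas 2.3.3, scipy 1.17.1 and matplotlib 3.10.9 were used.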

Additional observations from a re-analysis of the deposited data

How the results depend on the processing

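The 4 genes with an IDR summit within 1 kb of a start were the same without each replicate in turn (4 in each set), with peak intervals in place of summits, with the nearest start at any distance, and in the upper part of the IDR list (signal at or above its median). With a limit of 500 bp or canonical starts only, fne was lost (3, beside 25.1% and 26.5% of all genes). With 2000 bp nSyb was added (5, beside 35.2%). In the strongest 1000 IDR peaks only elav was left, both near a start (1, beside 6.31% of all genes) and in the body plus 2 kb (1, beside 11.1%). The body count was 4 with no flank (beside 16.0% of all genes), without scrt and nSyb, and 8 with 5000 bp (beside 56.1%), with brp and Syt1 added. Rbp9 was lost from the body count without replicate 1 or 2 (5 each, beside 35.5% and 34.2% of all genes). The 26 of 101 list genes near a start became 9 in that upper part (8.91%, beside 17.2% of all genes), 3 in the strongest 1000 (2.97%, beside 6.31%) and between 14 and 17 when a replicate was left out (16.8%, 13.9% and 15.8% without replicates 1, 2 and 3, beside 22.7%, 21.6% and 22.0%), in sets that are also stricter (4999 to 5095 IDR peaks). IDR summits per 10 kb over the 10 genes together were 0.438, beside 0.53 per 10 kb of the arms. Over the 10 genes they were 0.286 with no flank, 0.219 in the upper part and 0.0313 in the strongest 1000. The 7 genes with a summit near a start in every replicate became 4 in the 7092 strongest (beside 22.1% of all genes) and 4 in the 15000 strongest peaks of each replicate (beside 35.6%). Of the 14 summits, 12 were matched in all replicates, 7 within 50 bp (beside 64.9% of all IDR summits) and 14 within 200 bp (beside 97.2%). TAATTA was present at 2 within 200 bp (28.4% of all). The cause of these moves was not tested, but stricter sets hold fewer peaks by construction. The direction of the paralog differences was the same under every scale and without each replicate: 2.67 to 2.96 for elav minus fne, 3.57 to 3.78 for elav minus Rbp9 and 0.61 to 0.90 for fne minus Rbp9 on the log2 scale, and 10.15, 21.39 and 11.23 points of rank percentile in that order. These differences are paired within replicates, and there is no other group to pair. Their summits were picked by the signal in the pool of the same replicates, so the kept direction is not an independent check. Nor could these settings have changed the direction. All 3 replicates shared it, a replicate's median cancels from a difference within that replicate, and ranks follow the signal.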
